A study of Homo sapiens with 6 samples.

Results

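The response of SKOV3 WT/HAQ cells to 2'3'-cGAMP was described from 2 samples of the 6 in the series, 1 mRNA-sequencing library of control cells and 1 of cells given cGAMP. SKOV3 is an established human ovarian cancer line, and the WT/HAQ cells are its parental form, which carries 1 wild-type copy of STING1 and 1 copy of HAQ, a common haplotype of that gene named after the amino acids it encodes. The cells took up cGAMP at 10 µg/mL for 30 min in a digitonin permeabilization buffer and then rested in fresh medium for 4 h before RNA was taken, by the study's methods. The labels instead place the harvest directly after treatment, so the time point of every fold is uncertain, and the handling of the control cells is not described in the sources used here. The other 4 libraries, used only where the parental response is set beside them, are the control and cGAMP libraries of a WT/- clone and of a HAQ/- clone, each a single clone made from SKOV3 by CRISPR-Cas9 removal of the other STING1 allele. Of 60498 genes in the table of estimated counts, 15126 had a mean of at least 10 counts over the 6 libraries and were analysed. Each condition is 1 library, so no replicate spread exists and no test was made. A gene was called raised or lowered at a fold of at least 1.5 after scaling for library size, and brackets after a log2 fold hold its 95% interval, which covers counting error only. In bulk RNA a change in every cell and a change in a share of the cells cannot be told apart.

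The libraries held 16719799 counts after cGAMP and 17608467 in the control, and the other 4 held 12444822 to 17060710. Of 9 markers of the line or of ovarian epithelium, some were abundant and others nearly absent. ERBB2, the receptor gene that SKOV3 is known to carry in many copies, had 76640 counts in the control and 67877 after cGAMP, and the epithelial keratin KRT8 had 16551 and 12713, whereas WT1 and MUC16 had 11 and 33 in the control. The 9 leukocyte markers had no more than 15 counts in any library, and none passed the filter on the mean. Of 6 endothelial and fibroblast markers, 3 passed, and the fibroblast genes LUM and DCN had 212 and 172 counts in the control and 270 and 238 after cGAMP. The 10 reference genes had folds between -0.44 and 0.33 on the log2 scale, with GAPDH at 0.05 [0.02, 0.07].

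cGAMP is the second messenger that the DNA sensor cGAS makes when it meets DNA in the cytosol. It binds STING on the endoplasmic reticulum, and STING then moves to the Golgi and recruits the kinase TBK1, which phosphorylates the transcription factor IRF3 and leads to transcription of type I and type III interferons. Secreted interferon acts on its receptors through JAK kinases and a complex of STAT proteins with IRF9, which binds a promoter element, the interferon-stimulated response element, in the genes of the antiviral state. STING also feeds into NF-kB, which drives many chemokine and cytokine genes.

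Promoter windows are shown for genes that the account turns on, with matches to short letter patterns in capitals. Each run is the 250 bases before the RefSeq transcription start (GRCh38.p14), 5′ to 3′ on the gene's own strand. In IFNB1 (chr9:21077943-21078192, minus strand) the capitals mark letters of the form GGNNNNTTCC, a general NF-kB pattern. In CXCL10 (chr4:76023498-76023747, minus strand) they mark the same pattern and GAAANNGAAA, the core of the interferon-stimulated response element. That core was searched in IFNB1 too and had no match. Sites that depart from these patterns were not searched, so an unmarked stretch may still hold a site for IRF or NF-kB factors. In IFNL1 (chr19:39296157-39296406, plus strand), ISG15 (chr1:1013247-1013496, plus strand) and IFIT1 (chr10:89392373-89392622, plus strand) they mark that core alone, on either strand. CXCL2 (chr4:74099196-74099445, minus strand), CXCL8 (chr4:73740319-73740568, plus strand) and CCN2 (chr6:131951373-131951622, minus strand) were lowered, and there the capitals mark the NF-kB pattern, the AP-1 pattern TGANTCA and the TEAD pattern GGAATG respectively.
IFNB1: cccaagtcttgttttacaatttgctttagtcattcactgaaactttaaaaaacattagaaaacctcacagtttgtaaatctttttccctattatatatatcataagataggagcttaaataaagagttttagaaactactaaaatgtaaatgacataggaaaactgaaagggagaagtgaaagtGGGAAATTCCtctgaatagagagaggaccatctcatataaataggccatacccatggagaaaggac
CXCL10: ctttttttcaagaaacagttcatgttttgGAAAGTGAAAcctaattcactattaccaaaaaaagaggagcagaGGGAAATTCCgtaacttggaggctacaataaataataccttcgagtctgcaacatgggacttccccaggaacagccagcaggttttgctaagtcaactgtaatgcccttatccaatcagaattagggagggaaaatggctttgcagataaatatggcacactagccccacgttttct
IFNL1: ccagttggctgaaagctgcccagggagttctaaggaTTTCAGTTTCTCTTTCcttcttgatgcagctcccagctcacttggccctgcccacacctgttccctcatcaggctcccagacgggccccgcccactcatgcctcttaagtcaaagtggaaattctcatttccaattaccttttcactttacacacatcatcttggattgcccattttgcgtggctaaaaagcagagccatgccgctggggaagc
ISG15: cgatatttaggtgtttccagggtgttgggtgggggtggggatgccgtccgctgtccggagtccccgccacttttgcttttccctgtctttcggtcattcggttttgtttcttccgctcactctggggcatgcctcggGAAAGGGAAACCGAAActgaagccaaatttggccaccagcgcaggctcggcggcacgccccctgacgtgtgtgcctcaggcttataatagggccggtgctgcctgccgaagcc
IFIT1: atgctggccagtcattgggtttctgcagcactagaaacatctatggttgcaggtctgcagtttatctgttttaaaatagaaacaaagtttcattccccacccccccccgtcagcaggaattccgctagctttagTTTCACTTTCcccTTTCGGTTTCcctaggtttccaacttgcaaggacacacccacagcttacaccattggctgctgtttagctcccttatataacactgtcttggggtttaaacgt
CXCL2: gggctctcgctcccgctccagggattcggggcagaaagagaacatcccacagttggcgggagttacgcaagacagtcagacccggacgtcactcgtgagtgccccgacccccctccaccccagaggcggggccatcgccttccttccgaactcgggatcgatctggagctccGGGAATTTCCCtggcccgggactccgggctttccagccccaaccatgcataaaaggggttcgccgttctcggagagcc
CXCL8: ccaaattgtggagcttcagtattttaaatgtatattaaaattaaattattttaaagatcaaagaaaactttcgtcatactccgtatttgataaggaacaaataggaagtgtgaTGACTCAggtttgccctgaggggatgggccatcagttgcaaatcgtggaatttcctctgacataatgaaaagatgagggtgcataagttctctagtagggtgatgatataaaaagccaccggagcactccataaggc
CCN2: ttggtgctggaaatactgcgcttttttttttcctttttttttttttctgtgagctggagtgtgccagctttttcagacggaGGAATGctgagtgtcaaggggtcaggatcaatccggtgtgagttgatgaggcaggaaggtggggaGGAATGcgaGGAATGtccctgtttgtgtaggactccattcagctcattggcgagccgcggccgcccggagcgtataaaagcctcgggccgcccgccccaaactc

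Among all 15126 genes, 1943 (12.8%) were raised at least 1.5-fold and 1861 (12.3%) were lowered, 11310 moved less, and 12 were at or under 3 counts in both libraries and had no fold. The shares of 12.8% and 12.3% are the background for every list count given below. The median log2 fold of all genes was -0.01. On the raised side 444 genes rose at least 4-fold and 29 at least 64-fold, against 175 that fell at least 4-fold and none that fell 64-fold. Raised genes went from 4.71% of the control library's counts to 15.2% of the cGAMP library's, and lowered genes went from 13.1% to 6.23%. Lowered genes had a median of 196 counts in the control and raised genes 55, against 363 for all analysed genes. Both sets were picked by a ratio to that same count, so their difference follows in part from the choice. The cGAMP level of 1585 raised genes (81.6%) was above all 3 control libraries of the series, and that of 1546 lowered genes (83.1%) was below all 3. The WT/HAQ control is among the 3 and defined the calls, so here and below only the controls of the clones add a comparison. No such share was taken over genes that were not called. The filter on the mean let in 198 raised genes that averaged under 10 counts in the 3 control libraries and passed only through libraries in which they were high. Without them 310 genes rose at least 4-fold and 16 at least 64-fold.

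**Figure D1:**
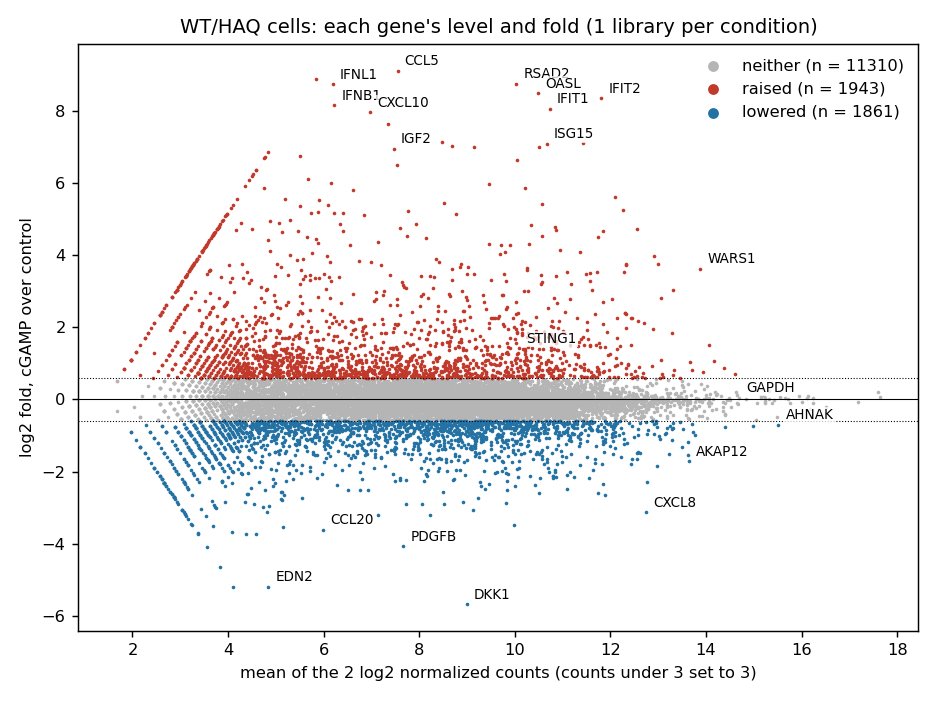
Level and fold of each analysed gene in WT/HAQ cells. The x axis is the mean of the log2 normalized counts of the 2 libraries, the y axis the log2 fold of cGAMP over control, and dotted lines stand at 1.5-fold. The 1943 raised genes (red) reach above 8 while the 1861 lowered genes (blue) stop at DKK1, at -5.67.

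The 12 genes raised most, ranked by the bound of the interval nearest to no change, were antiviral effectors, interferons and chemokines. RSAD2, which encodes the antiviral enzyme viperin, went from 57 to 22746 counts, a log2 fold of 8.75 [8.37, 9.15]. OASL, a sensor of the oligoadenylate synthetase family, went from 86 to 28431 counts (8.47), and IFIT2, which binds viral RNA, from 224 to 67633 (8.34). IFIT1 rose from 118 to 29179 counts (8.05) and its partner IFIT3 from 268 to 34080 (7.10). MX2, a GTPase that blocks viral capsids, rose from 13 to 2405 counts (7.64), and ISG15, a ubiquitin-like protein, from 158 to 19867 (7.08). The remaining members of the 12 were CCL5, CXCL10, CXCL11, IFNB1 and IFNL1, described with their groups.

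**Figure D2:**
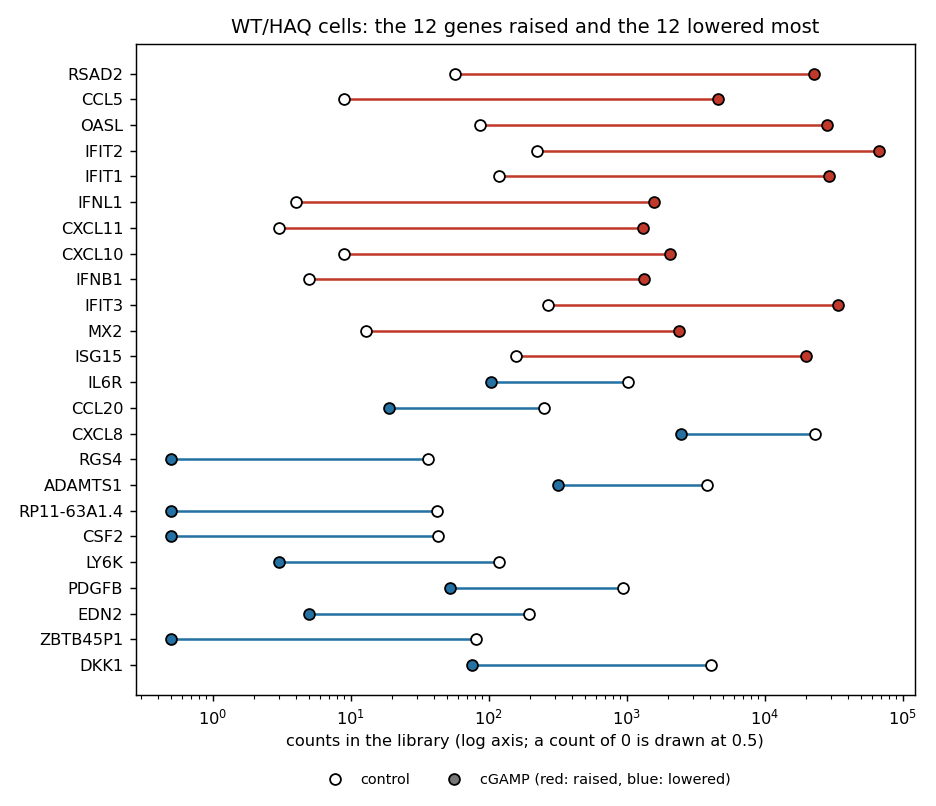
Counts in the control library (open) and the cGAMP library (filled) for the 12 genes raised most (red) and the 12 lowered most (blue) in WT/HAQ cells, on a log axis with a count of 0 drawn at 0.5. RSAD2 moves from 57 to 22746 counts and DKK1 from 4104 to 75.

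STING1 itself, on chromosome 5 (chr5:139475533-139482935, GRCh38), was itself raised after cGAMP. It had 757 counts in the WT/HAQ control and 1873 after cGAMP, a log2 fold of 1.41 [1.29, 1.54]. In the WT/- clone it had 378 and 414 counts (0.65), and in the HAQ/- clone 244 and 368 (0.92), so the parental cells held the highest level in either condition. Of 19 analysed genes of the cGAS-STING pathway 6 were raised and 2 lowered, with a median of 0.02. The largest rises were SAMHD1, which depletes nucleotides that viruses need and limits cytosolic DNA, from 360 to 7672 counts (4.52), and IFI16, a DNA sensor, from 1043 to 4339 (2.16). The cGAMP hydrolase gene ENPP1 went from 104 to 205 counts (1.08) and the DNA exonuclease gene TREX1 from 83 to 133 (0.79). TBK1, the kinase that STING recruits, fell from 946 to 550 counts (-0.68), and LRRC8A, a subunit of the channel that carries cGAMP across the membrane, from 2662 to 1470 (-0.75). IRF3, the factor TBK1 activates, had 1571 and 994 counts (-0.56), just short of 1.5-fold.

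Of 21 listed type I and III interferons, 6 were analysed. IFNL1, a type III interferon, went from 4 to 1575 counts, a log2 fold of 8.73 [7.37, 10.60]. IFNB1, the first type I interferon made in most epithelial cells, went from 5 to 1325 counts, or 8.15 [6.93, 9.78]. IFNL3 and IFNL2 each had 2 counts in the control, against 286 and 227 after cGAMP. These 4 genes were near 0 in all 3 control libraries and passed the filter only through cGAMP libraries, so their count carries no weight as evidence. The genes that did not follow were IFNA1, with 8 and 6 counts, and IFNE, an interferon of the reproductive tract that is expressed without infection, which fell from 72 to 38 counts (-0.82 [-1.42, -0.23]). The cells thus gave reads for beta and lambda interferons and almost none for alpha.

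The machinery that answers interferon moved unevenly. Of 8 analysed receptor and JAK genes, JAK2 rose from 164 to 1941 counts (3.67 [3.44, 3.91]) and IFNGR1, a chain of the interferon gamma receptor, fell from 1776 to 1052 (-0.65), while the type I receptor chain IFNAR1 had 860 and 851 counts and JAK1 5020 and 4388. Of 13 analysed IRF and STAT genes 6 were raised and none lowered. STAT2 rose from 561 to 4935 counts (3.24), IRF7, which amplifies interferon transcription, from 190 to 1417, and IRF9 from 213 to 1415 (2.84). IRF2 rose from 162 to 830 counts (2.46), while STAT3 had 7844 and 6622 counts (-0.14). STAT2 and IRF9, which act in the same complex, both stood higher after cGAMP, while 6 of the 8 receptor and JAK genes passed 1.5-fold in neither direction.

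Of 34 analysed antiviral effectors 32 were raised and none was lowered, with a median log2 fold of 4.70, and all 32 were above the 3 control libraries. Besides the genes above, OAS1, which makes the activator of RNase L, rose from 34 to 4415 counts (7.13). APOBEC3B, a cytidine deaminase, and IFITM2, which blocks viral entry, did not pass 1.5-fold, at 0.38 [-0.13, 0.90] and 0.49 [0.41, 0.57]. Of 7 genes of ISG15 conjugation 6 were raised, among them the protease gene USP18 from 63 to 2563 counts (5.45), the ligase gene HERC5 from 911 to 31950 (5.24) and HERC6 from 317 to 5856 (4.31). ARIH1, a ligase with other substrates, had 1748 and 1550 counts (-0.07). Of 12 analysed genes of cytosolic RNA sensing 6 were raised. These were the helicase sensors IFIH1 (119 to 11028 counts, 6.64), RIGI (176 to 9482, 5.86) and DHX58 (133 to 1527, 3.63), the endosomal receptor TLR3 (13 to 132, 3.45), the editor ADAR (1.02) and the ligase TRIM25 (0.64). MAVS, the adaptor of IFIH1 and RIGI, had 3237 and 3417 counts (0.18).

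By normalized counts gained, the largest shares went to IFIT2, WARS1 and IFIT3. WARS1, the cytosolic tryptophanyl-tRNA synthetase, rose from 4882 to 55655 counts, a 12.3-fold rise of an already abundant gene. ZC3HAV1, an antiviral protein that binds CpG-rich RNA, rose from 703 to 32038 counts (49.0-fold), SAMD9 from 1333 to 32502 (26.2-fold) and HERC5 37.7-fold. APOL1, a lipoprotein component that lyses trypanosomes, rose from 2193 to 32312 counts (15.8-fold). The mitochondrial ribosomal RNA MT-RNR2 was also among the 8 genes that gained most, with 207889 and 224643 counts, a log2 fold of only 0.22.

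Other interferon-linked families followed. Of 6 analysed guanylate-binding protein genes 5 were raised, led by GBP4 (22 to 707 counts, 5.11), GBP1 (396 to 4452, 3.60) and GBP5 (1030 to 10835, 3.50), while GBP2 had 266 and 319 counts (0.37). All 5 analysed APOL genes were raised, with a median of 4.50, though 1 of them, APOL4 (2 and 74 counts), passed the filter only through cGAMP libraries. Of the interferon-linked PARP genes 6 of 7 analysed were raised, with PARP14 from 1590 to 19696 counts (3.74) and PARP11 at 0.21. The APOL and PARP lists, and those on NKG2D ligands, oxidases, tryptophan, clock, ribosome, cytoskeleton, HOX, TRIM and ZNF genes, were drawn up after the values had been seen and describe the libraries only. Of 47 analysed TRIM genes, a family of ubiquitin ligases with many antiviral members, 14 were raised and 7 lowered with a median of 0.01, and TRIM69 (3.76), TRIM22 (3.01) and TRIM21 (2.32) were among those raised.

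Negative feedback on interferon signalling was mixed, with 5 of 11 genes raised and 3 lowered. Besides USP18, which also holds back the type I receptor, SOCS1, an inhibitor of JAK kinases, rose from 21 to 201 counts (3.36 [2.71, 4.09]), TRIM21 from 410 to 1903 (2.32) and TIPARP from 2055 to 5362 (1.49). CISH and SOCS2, inhibitors that answer STAT5, fell from 545 to 213 counts (-1.25) and from 450 to 223 (-0.91). TNFAIP3, which encodes the NF-kB inhibitor A20, fell from 11363 to 3867 counts (-1.45 [-1.50, -1.40]). None of the 3 lowered genes was below all 3 control libraries.

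Of 12 listed T-cell and NK-cell attractants 7 were analysed and all 7 were raised, but 5 of them passed the filter only through cGAMP libraries, so that count and its median of 3.76 carry no weight as evidence. The other 2 were CCL5 and CXCL16, the latter with 49 and 86 counts (0.92). CCL5 went from 9 to 4613 counts, the largest log2 fold of any gene at 9.11 [8.18, 10.24]. CXCL11 had 3 counts in the control and 1314 after cGAMP, a ratio of 8.88 [7.33, 11.16] on the log2 scale. CXCL10 went from 9 to 2070 counts (7.95 [7.02, 9.08]), CX3CL1 from 10 to 126 (3.76), and CXCL9, with 2 and 37 counts, stayed low. Counts of the neutrophil and Th17 attractants went the other way. All 6 analysed were lowered, with a median of -2.79. CXCL8 fell from 22998 to 2453 counts (-3.12 [-3.18, -3.06]), CXCL1 from 5831 to 979 (-2.47), CXCL2 from 1765 to 246 (-2.74), CXCL3 from 1474 to 190 (-2.85) and CCL20 from 250 to 19 (-3.61), and CXCL5 had 20 and 8 counts (-1.22 [-2.61, 0.03]). Genes of both directions lie on chromosome 4, with CXCL8 and CXCL1 at chr4:73740519-73743716 and chr4:73869393-73871308, and CXCL10 and CXCL11 at chr4:76021118-76023497 and chr4:76033682-76041415.

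The starting level of the lowered chemokines differed widely between lines. Normalized counts of CXCL8 were 20328 in the WT/HAQ control, 46002 in the WT/- control and 3138 in the HAQ/- control, and 2332, 17893 and 822 after cGAMP. Each line fell from its own control, with the largest fold in WT/HAQ cells and the largest loss of counts in WT/- cells. Of the 6 lowered genes only 3 ended below all 3 control libraries. CCL20, for instance, had 18 normalized counts in WT/HAQ cells after cGAMP and 11 in HAQ/- control cells. Replacing the control by the geometric mean of the 3 control libraries left the median of the 6 genes at -2.33. In the WT/- and HAQ/- lines 5 of the 6 genes were lowered, and 1 was raised in HAQ/- cells, against 8.77% and 5.76% of all genes lowered there. The 3 raised chemokines drawn in the plot had log2 folds of 8.27 (CCL5), 8.72 (CXCL10) and 9.08 (CXCL11) in WT/- cells. In HAQ/- cells CCL5 went from 15 to 249 counts (4.38), CXCL10 had 4 and 9 counts and CXCL11 2 and 10.

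**Figure D3:**
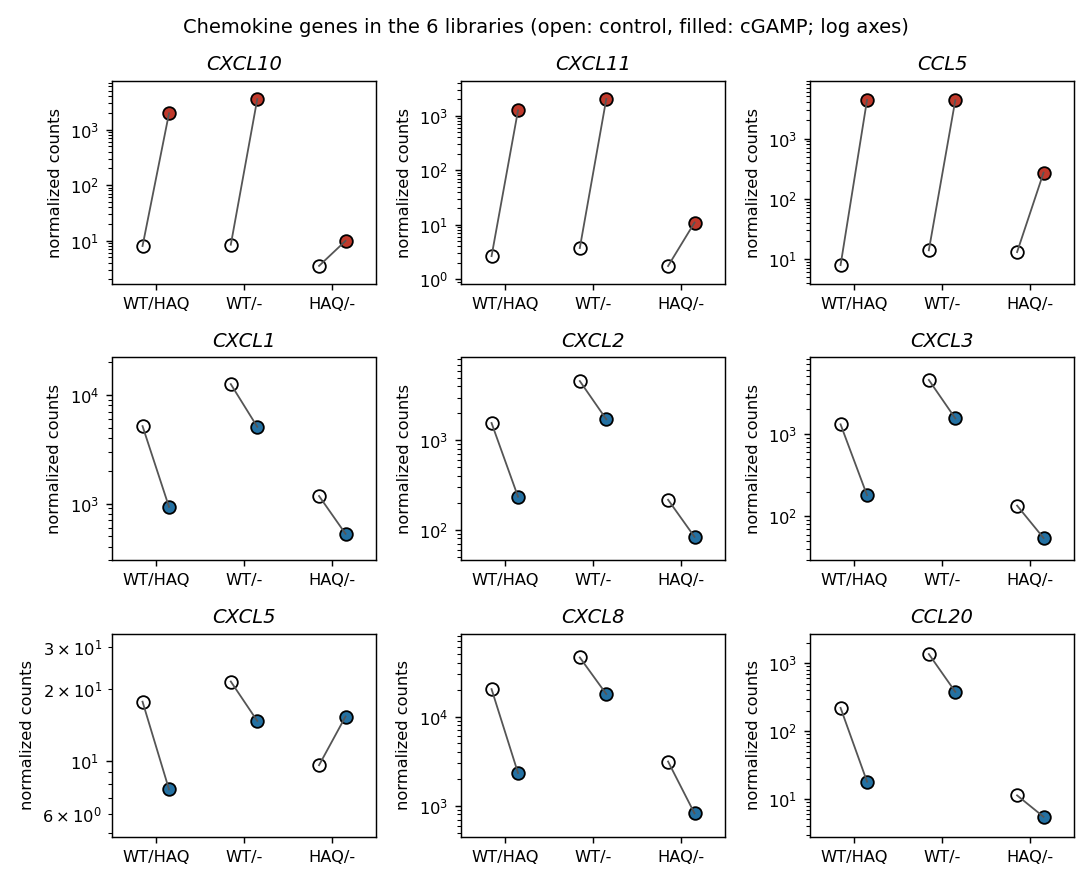
Normalized counts of 9 chemokine genes in all 6 libraries (open, control; filled, cGAMP; red or blue by the direction in WT/HAQ cells; log axes). CXCL10, CXCL11 and CCL5 rise from near the floor, and CXCL1, CXCL2, CXCL3, CXCL8 and CCL20 fall from a different starting level in each line.

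Of 18 analysed cytokines and growth factors 7 were raised and 7 lowered, with a median of -0.03 that was -0.51 at a mean of at least 50 counts. TNFSF13B and IL33, both raised, passed the filter only through cGAMP libraries, and 3 of the 7 lowered genes ended below all 3 control libraries. TNFSF13B, the B-cell factor BAFF, had 1 count in the control and 110 after cGAMP. TNFSF10, the death ligand TRAIL, rose from 290 to 1753 counts (2.70), VEGFC from 123 to 421 (1.88), IL33 from 8 to 21 with a log2 fold interval of 0.26 to 2.88, IL15 from 115 to 289 (1.43) and IL6 from 963 to 2091 (1.22). CSF2, the granulocyte-macrophage factor, went from 43 counts to 0, at least 13.3-fold lower. IL1B fell from 465 to 96 counts (-2.17), TNF from 748 to 187 (-1.90), IL1A from 4226 to 1291 (-1.61) and LIF from 11940 to 3992 (-1.48).

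NF-kB subunits and inhibitors leaned down. Of 16 genes 2 were raised and 9 lowered, with a median of -0.81, and 2 of the 9 ended below all 3 control libraries. NFKBIE fell from 1080 to 367 counts (-1.45), the subunit gene REL from 1641 to 616 (-1.31), NFKBIB from 590 to 265 (-1.05) and BCL3 from 1364 to 624 (-1.02). The central subunit RELA had 3634 and 3322 counts (-0.02) and the inhibitor NFKBIA 2654 and 2260 (-0.13). NFKBIZ, a nuclear cofactor, rose from 827 to 2012 counts (1.39 [1.27, 1.51]). With the geometric mean of the 3 control libraries as the control, the median of the list was -0.58.

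Genes that display a cell to T and NK cells were raised more often than not. Of 21 analysed MHC class I presentation genes 11 were raised and none lowered, with a median of 0.59 and all 21 above 0. The peptide transporter TAP1 rose from 1640 to 9896 counts (2.70), the class I transactivator NLRC5 from 744 to 2481 (1.84), the immunoproteasome subunit PSMB9 from 250 to 773 (1.73) and TAPBPL from 52 to 146 (1.59). B2M, the light chain, rose from 17938 to 30337 counts (0.86), while the chaperone CANX had 15767 and 14970 (0.03). Of 10 analysed checkpoint genes 7 were raised and 1 lowered. LGALS9 rose from 17 to 159 counts (3.33), IDO1, which breaks down tryptophan, from 772 to 4180 (2.54), CD274, which encodes PD-L1, from 179 to 907 (2.45 [2.21, 2.69]) and PDCD1LG2 from 36 to 69 (1.04), and PVR fell from 3171 to 1579 (-0.90). Of 7 analysed ligands of the NK receptor NKG2D 5 were raised. RAET1L went from 41 to 4948 counts (7.02), ULBP3 from 80 to 508 (2.77) and ULBP2 from 73 to 289 (2.09), whereas ULBP1 and MICB were at -0.09 and -0.26.

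Several death genes rose. Of 20 analysed death ligands, receptors and caspases 9 were raised and 1 lowered, with a median of 0.46. Besides TNFSF10, the receptor FAS rose from 237 to 1214 counts (2.46 [2.26, 2.67]) and CASP10 from 93 to 310 (1.84). TNFRSF10D, a decoy receptor for TRAIL, fell from 1010 to 383 counts (-1.29). Within the BCL2 family 4 of 15 analysed genes were raised, all of them BH3-only killers. PMAIP1, which encodes NOXA, rose from 2488 to 31454 counts (3.77 [3.71, 3.82]), BBC3, which encodes PUMA, from 63 to 435 (2.89), BCL2L11, which encodes BIM, from 223 to 801 (1.95) and HRK from 24 to 52 (1.22). The BH3-only gene BMF fell from 197 to 61 counts (-1.59) and the survival gene BCL2L1 from 7162 to 3839 (-0.79).

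Metabolic and oxidase genes outside the usual antiviral lists were also among the large rises. Of 10 analysed oxidase and nitric oxide genes 8 were raised, and 4 of these passed the filter only through cGAMP libraries. DUOX2, a dual oxidase of epithelia, went from 0 to 321 counts, at least 115-fold higher, its maturation factor DUOXA2 from 0 to 88 and the nitric oxide synthase NOS2 from 0 to 68, at least 24.4-fold higher. GCH1, which makes the cofactor of nitric oxide synthases, rose from 246 to 4454 counts (4.28 [4.10, 4.47]). Of 11 analysed genes of tryptophan and NAD metabolism 7 were raised, 1 of them let in only by cGAMP libraries, and 2 lowered, with PNP, a purine phosphorylase, from 4018 to 30580 counts (3.03), NAMPT from 3361 to 6935 (1.15) and the deacetylase gene SIRT1 lowered from 1557 to 811 (-0.84). Of 15 analysed glycolysis and hypoxia genes 3 were raised and 2 lowered, beside 12.8% and 12.3% of all genes. The oxygen sensor EGLN3 rose from 15 to 169 counts (3.60).

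Among the 12 genes lowered most, DKK1, a secreted inhibitor of WNT signalling, fell from 4104 to 75 counts, a log2 fold of -5.67 [-6.02, -5.34], the largest fall of any gene. The endothelin gene EDN2 fell from 196 to 5 counts (-5.19), LY6K from 118 to 3 and PDGFB, a platelet-derived growth factor chain, from 937 to 52 (-4.07 [-4.50, -3.66]). ADAMTS1, a secreted protease, fell from 3835 to 319 counts (-3.48) and IL6R, the receptor for IL-6, from 1021 to 104 (-3.19 [-3.50, -2.90]). Low counts lay behind the others of the 12 besides CSF2, CXCL8 and CCL20, namely the pseudogene ZBTB45P1 (81 counts to 0), the transcript RP11-63A1.4 (42 to 0) and RGS4 (36 to 0). Besides CXCL8, the genes that lost most normalized counts included the scaffold AHNAK, from 67328 to 38630 counts (-0.70), the myosin heavy chain MYH9, from 46913 to 26391 (-0.73), the kinase anchor AKAP12, from 25994 to 7391 (-1.71), and tissue factor F3, from 24115 to 7735 (-1.54). PLEC, ACTG1 and RESF1 were also among them at -0.48, -0.22 and -0.57, short of 1.5-fold.

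Genes that respond to the coactivator YAP and to TGF-beta were mostly lowered. Of 16 genes 11 were lowered and none raised, with a median of -1.33, and all 11 ended below the 3 control libraries. ANKRD1 fell from 136 to 11 counts (-3.52 [-4.56, -2.64]), EDN1 from 4044 to 625 (-2.59), CCN2, a matricellular protein and classic YAP target, from 7242 to 1493 (-2.17 [-2.25, -2.09]) and INHBA from 4414 to 931 (-2.14). TGFBI, a strong TGF-beta target, was at -0.07. Of 21 immediate-early genes 13 were lowered and 3 raised, with a median of -0.90. EGR2 fell from 1029 to 245 counts (-1.97), FOSB from 3606 to 906 (-1.89), FOSL1 from 12082 to 3594 (-1.64) and MYC from 3966 to 1250 (-1.56), while KLF4, an epithelial transcription factor, rose from 1241 to 9424 (3.03 [2.94, 3.12]) and FOS had 2517 and 2303 counts (-0.02).

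Of 10 analysed EGF-family ligands and receptors 5 were lowered and 1 raised, with a median of -0.57 that was -0.062 against the geometric mean of the 3 control libraries. NRG1, a ligand of ERBB3 and ERBB4, fell from 2441 to 402 counts (-2.50 [-2.65, -2.34]), AREG from 332 to 121 (-1.35), HBEGF from 928 to 410 (-1.07) and EGFR from 7657 to 3743 (-0.93), and BTC rose from 144 to 275 (1.04). Of 16 genes that feed back on the ERK pathway 5 were lowered and 1 raised, with the ERK phosphatase DUSP6 down from 1578 to 486 counts (-1.59), DUSP10 from 648 to 246 (-1.29) and DUSP5 from 2427 to 1040 (-1.12), while DUSP1 had 2907 and 2892. Among the line's own markers PAX8, a transcription factor of the Müllerian lineage, fell from 7638 to 2068 counts (-1.78 [-1.85, -1.71]) and KRT7 from 13198 to 6130, and the low genes WT1, let in only by cGAMP libraries, and MUC16 had 11 and 25 and 33 and 72 counts.

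Sterol and fatty acid synthesis shifted by small amounts in 1 direction. All 22 genes were below 0, with a median of -0.43, and 6 were lowered at least 1.5-fold. HMGCS1 fell from 20475 to 7704 counts (-1.31), INSIG1 from 9705 to 4590 (-0.98) and SQLE from 2219 to 1190 (-0.79). The stress pathways did not move as groups, with 2 of 19 genes raised and 3 lowered for the integrated stress and unfolded protein responses and a median of 0.03. Single genes did. XBP1, a transcription factor of the unfolded protein response, rose from 3632 to 14542 counts (2.11 [2.05, 2.16]) and PPP1R15A, which reverses eIF2alpha phosphorylation, from 10246 to 19669 (1.05 [1.01, 1.08]), while SESN2 fell from 615 to 308 (-0.89), DDIT3 from 1009 to 513 (-0.87) and ATF4 from 10748 to 5573 (-0.84). Of 13 heat shock genes HSPA1B was raised (0.65) and BAG3 lowered (-0.67).

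Proliferation genes changed little. Of 16 S-phase genes only CCNE2 passed 1.5-fold, from 90 to 143 counts (0.77), and the median was 0.22. None of the 16 G2/M genes passed, and their median was 0.01, with MKI67 at 3750 and 3594 counts. Ribosomal protein genes had a median of -0.01 over 79 analysed members and the 13 mitochondrial coding genes lay between -0.09 and 0.10. Genes that build ribosomes stood lower, with 12 of 27 lowered, 1 raised and a median of -0.54, among them UTP25 from 845 to 263 counts (-1.58) and RRP12 from 1481 to 471 (-1.55). All 15 circadian clock genes were below 0 and 10 were lowered, led by PER1 from 1793 to 329 counts (-2.34 [-2.52, -2.17]) and BMAL1 from 602 to 179 (-1.64). Of 21 analysed actomyosin and cortical cytoskeleton genes 6 were lowered, with FRMD6, an upstream regulator of the Hippo pathway, from 10747 to 1585 counts (-2.66), while ACTB was at 0.00. Of 23 analysed HOX genes 14 were raised, 1 of them let in only by cGAMP libraries, and 1 lowered, with a median of 0.73. Of 442 analysed ZNF genes 43 were raised and 50 lowered, beside 12.8% and 12.3% of all genes.

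**Figure D4:**
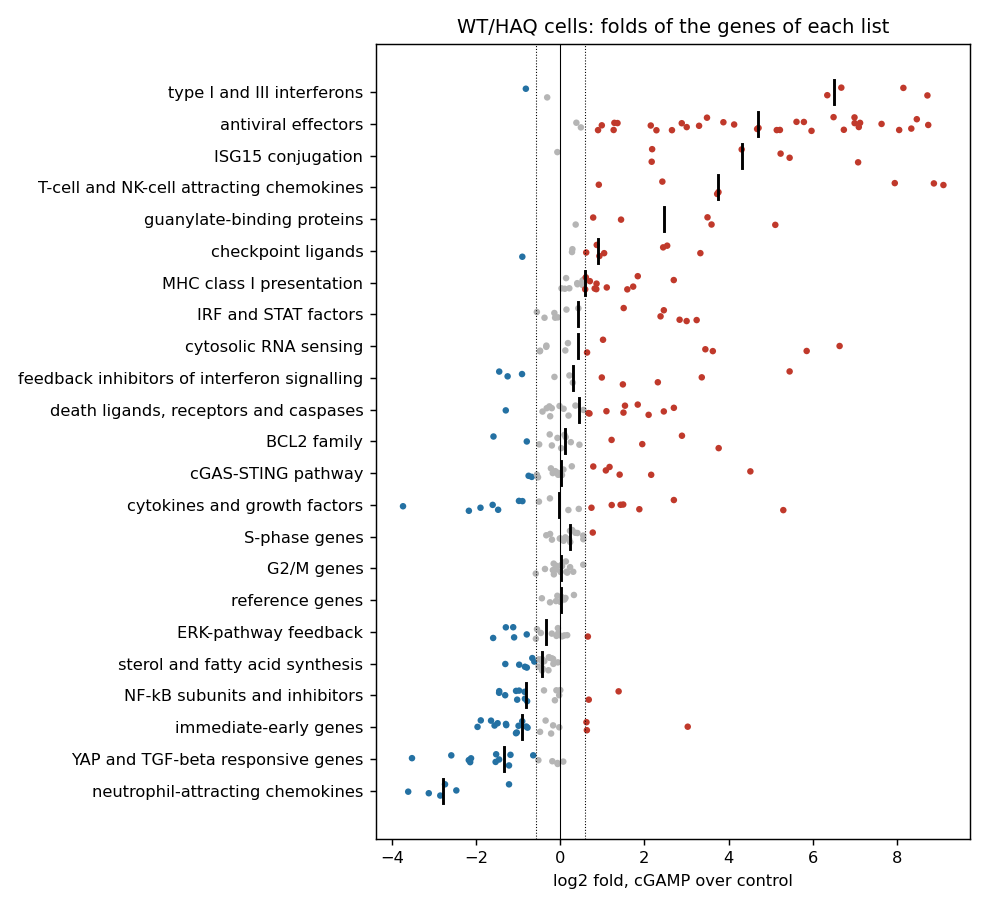
Log2 fold of cGAMP over control in WT/HAQ cells for each analysed gene of 23 lists (points; red raised, blue lowered, grey neither; black bars, list medians; dotted lines, 1.5-fold). Antiviral effectors have a median of 4.70, reference genes one of 0.02, and the 6 neutrophil-attracting chemokines have a median of -2.79.

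The promoters shown above were read against all others. A window of 250 bases was at hand for 11175 of the analysed genes, and 4 patterns were searched on both strands. The interferon element core GAAANNGAAA was in 269 of them (2.41%), and in 3.07% of all 27303 RefSeq windows of that length. It was in 84 of 1299 windows of raised genes (6.47%), 43 of 298 of genes raised at least 4-fold (14.4%) and 20 of 1243 of lowered genes (1.61%). The raised sets include genes that passed the filter only through libraries in which they were high, and no share of any pattern was recomputed without them. Among antiviral effectors 15 of 24 windows held it, among MHC class I presentation genes 7 of 17, and none of the 6 windows of neutrophil-attracting chemokines did. Lists with 6 raised genes each could also lack it, with 1 of 11 windows for cytosolic RNA sensing, 0 of 8 for IRF and STAT factors and 0 of 17 for the cGAS-STING pathway. Read the other way, 31.2% of the genes with the core were raised, against 11.1% of those without. The window of IFIT1 holds 2 copies, at bases 116 to 107 and 103 to 94 before the start, and that of CXCL10 at 221 to 212.

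The NF-kB pattern GGNNNNTTCC was in 2257 windows (20.2%), 17.7% of all RefSeq windows, 245 windows of raised genes (18.9%) and 272 of lowered genes (21.9%). At 4-fold or more it was in 58 of 298 windows of raised genes (19.5%) and 27 of 98 of lowered genes (27.6%). Of the 6 neutrophil-attracting chemokines 5 held it, as did IFNB1 and CXCL10, where the same letters GGGAAATTCC stand at bases 66 to 57 and 177 to 168 before the start. The pattern was therefore present in windows of genes that rose 247-fold or more and of genes that fell. The CXCL8 window had no match, though it holds the letters tggaatttcc, which depart from the pattern only in the first letter. The AP-1 pattern TGANTCA was in 452 windows (4.04%; all RefSeq windows, 6.60%), in 4.93% of raised and 7.32% of lowered genes, and at 4-fold or more in 6.04% of raised and 11.2% of lowered genes. The TEAD pattern GGAATG, which can share letters with the NF-kB pattern, was in 1058 windows (9.47%; all RefSeq windows, 11.9%), in 10.8% of raised and 11.3% of lowered genes, and at 4-fold or more in 13.8% and 13.3%, and 3 copies stand in the CCN2 window. A match is a match of letters and says nothing of binding in these cells.

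Of 1589 raised protein-coding genes with a next analysed protein-coding gene on the chromosome, 373 (23.5%) had a raised neighbour, while 12.2% of all analysed protein-coding genes were raised. Without the genes that averaged under 10 counts in the 3 control libraries, 317 of 1444 (21.95%) had one, against 11.2% of genes raised. For lowered genes the share was 16.6%, against 10.7%. The longest run held 11 raised genes on chromosome 10 (chr10:88879734-90908553, GRCh38, GENCODE 44), from STAMBPL1 through ACTA2, FAS, LIPA, IFIT2, IFIT3, IFIT1, IFIT5, PANK1 and KIF20B to RPP30, with log2 folds from 0.60 to 8.34. A run of 7 on chromosome 15 held B2M, TRIM69, SORD and the 4 DUOX and DUOXA genes, of which DUOX2 and DUOXA2 were at 0 in the control, 1 of 6 on chromosome 22 held 5 APOL genes and RBFOX2, and 1 of 6 on chromosome 2 held HOXD genes. The longest lowered run was 6 genes on chromosome 19, ZNF540, ZNF571, ZFP30, ZNF607, ZNF573 and SIPA1L3. Whether reads from 1 strongly transcribed gene were counted for its neighbours was not tested. By gene class, long non-coding RNAs were 10.7% of raised and 17.7% of lowered genes, and 8.23% of all analysed genes with an entry in the annotation.

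The parental response was set beside those of the 2 clones, each with its own control library. In WT/- cells 1796 genes were raised (11.9%) and 1327 lowered (8.77%), and in HAQ/- cells 1021 (6.75%) and 872 (5.76%). Of the genes raised in WT/HAQ cells 60.1% were also raised in WT/- cells and 30.9% in HAQ/- cells. These 1168 and 601 genes were 65.0% and 58.9% of the lists of those lines. For lowered genes the shares were 39.8% and 20.0% of the WT/HAQ list, and 55.8% and 42.7% of the lists of the clones. The median log2 fold of the 1943 raised genes was 1.12 in the parental cells, 0.78 in the WT/- clone and 0.29 in the HAQ/- clone, and that of the 1861 lowered genes was -0.94, -0.48 and -0.26. Since these genes were picked by their fold in WT/HAQ cells, that fold is the largest in part by the choice. Across 15087 and 15065 genes with a fold, Pearson's r of the log2 folds was 0.75 with WT/- and 0.55 with HAQ/- cells, and Spearman's rho 0.55 and 0.43, as a description across genes that share libraries and depth. With 1 library a side none of these differences between lines was tested.

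Gene by gene the lines parted in several ways. IFNB1 went from 5 to 1325 counts in the parental cells, from 2 to 1934 in the WT/- clone and from 6 to 15 in the HAQ/- clone. RSAD2 had 57 and 22746, 49 and 4865, and 53 and 2390, so the parental cells reached the highest level of it. Antiviral effectors had 32 of 34 members raised in WT/- cells, and 30 raised and 1 lowered in HAQ/- cells, with medians of 4.04 and 3.37. DKK1 fell from 4104 to 75, from 1971 to 108 and from 2285 to 698 counts, a fall in each line that was largest in the parent. IGF2, chosen after its values were seen, rose from 18 to 2055 counts in WT/HAQ cells (6.94 [6.28, 7.70]), had 12 and 134 in WT/- cells (4.00) and 21 and 22 in HAQ/- cells (0.39). FAS was at 2.88 in WT/- cells and at 0.29 in HAQ/- cells. The control libraries of the clones differed from the WT/HAQ control past 1.5-fold in 3456 (WT/-) and 2414 (HAQ/-) of 15126 genes, beside 25.1% of genes between the WT/HAQ control and cGAMP libraries.

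**Figure D5:**
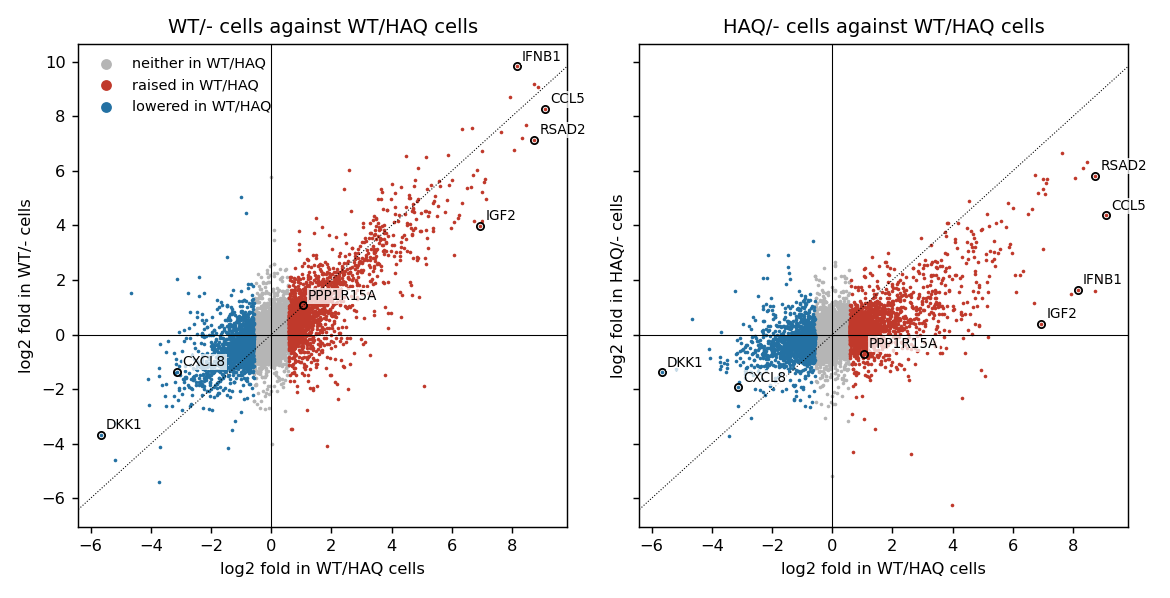
Log2 fold of each analysed gene in WT/- cells (left) and HAQ/- cells (right) against its fold in WT/HAQ cells (red raised, blue lowered and grey neither in WT/HAQ; dotted line, equal folds; circles, the genes labelled). In WT/- cells CCL5 and RSAD2 lie below the line at 8.27 and 7.15 and IFNB1, whose control count of 2 was set to 3, above it. In HAQ/- cells IFNB1 and IGF2 lie far below it at 1.65 and 0.39.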

How the data were processed

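The series holds 6 mRNA-sequencing libraries of SKOV3 cells, 1 per line and treatment. Per the study's methods, poly(A) libraries were read as paired ends of 150 bases, and the submitters' processing notes name STAR, RSEM and the build hg38 (GRCh38). The versions and the strand setting of the counting are not given in the sources used here, so reads of overlapping or antisense genes could not be told apart. The authors deposited estimated counts per gene, which were rounded to whole numbers here.

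Genes with a mean of at least 10 counts over the 6 libraries were kept. Libraries were scaled by TMM factors (edgeR 4.0.16, R 4.3.3; 0.940 to 1.05), and counts under 3 were set to 3. Normalized counts are on the scale of the geometric mean of the 6 scaled library sizes. The 95% interval of a fold is an exact binomial (Clopper-Pearson) interval conditional on the sum of both counts, and covers counting error only. A fold against a control at 0 is a bound computed with the floor of 3 counts per library. Control counts of 1 to 3 are given as they are. The fold calculation was tested on simulated data. No replicate exists, so no p-value was computed.

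Genes were named by rule: STING1 and the genes the study followed by RT-qPCR, the 12 raised and 12 lowered most by the nearer bound of the interval, the 8 that gained and the 8 that lost most normalized counts, and up to 4 members with the largest rise and fall of each list. All other genes named, among them unmoved members, neighbours in a run, the genes of the lists drawn up later and further members of the lists, were chosen after their values were seen. The members and lists were chosen with earlier results of these data known. Promoter windows are from RefSeq (GRCh38.p14) and gene positions from GENCODE 44, which held 14995 of the 15126 genes. Alternatives changed the scaling, depth, floor, filter, threshold and control (DESeq2 1.42.0 for size factors). Tables and figures were made with Python 3.11.15, pandas 2.3.3, scipy 1.17.1 and matplotlib 3.10.9. Some genes are not reported here.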

Additional observations from a re-analysis of the deposited data

Results flagged for a closer look

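Among the genes named by rule, PPP1R15A and ZBTB45P1 moved past 1.5-fold in opposite directions in different lines with the whole counting interval past 1.5-fold in each, and the difference was not tested, since each condition is 1 library. PPP1R15A, which reverses eIF2alpha phosphorylation, had 10246 counts in the WT/HAQ control and 19669 after cGAMP, a log2 fold of 1.05, and in WT/- cells 18969 and 27928 (1.08). In HAQ/- cells it had 4655 and 2290 counts (-0.70). The pseudogene ZBTB45P1 had 81 and 0 counts in WT/HAQ cells, a log2 fold of -4.65 with the floor of 3 counts, 0 and 6 counts in WT/- cells and 56 and 67 in HAQ/- cells. CXCL5 (20 and 8 counts in WT/HAQ, 11 and 14 in HAQ/- cells) and IL33 (8 and 21 in WT/HAQ, 13 and 4 in WT/- cells) also passed 1.5-fold in opposite directions, with intervals that reach below it.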

How the results depend on the processing

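The counts of raised and lowered genes followed the filter and the threshold. They were 1156 and 1185 at a mean of at least 50 counts, 2974 and 2804 at a mean of at least 1, 1115 and 810 at a fold of at least 2, 3653 and 4022 at a fold of at least 1.2, and 1035 and 871 where the whole counting interval had to lie past 1.5-fold. Under the other 9 settings, 2 of them added after seeing the data, both counts stayed within 1.5 times the values reported. The WT/- control library in place of the WT/HAQ control gave 2463 and 2669, sharing 1273 and 1313 genes, and the HAQ/- control library gave 2185 and 1896, sharing 1380 and 1142. With the geometric mean of the 3 control libraries as the control, list medians became 0.59 for IRF and STAT factors, 3.95 for ISG15 conjugation, -2.33 for neutrophil-attracting chemokines, -0.58 for NF-kB genes, 1.07 for checkpoint ligands, -0.75 for immediate-early genes, -0.062 for the EGF family, -1.17 for YAP and TGF-beta genes, 0.077 for heat shock, -0.56 for sterol synthesis, 0.17 for glycolysis and hypoxia, 0.049 for SKOV3 markers and 0.27 for endothelial and fibroblast markers. At a mean of at least 1 they became 4.41 for antiviral effectors, 0.26 for cytokines, -0.32 for the EGF family, 3.43 for oxidases and 2.99 for PARP genes. At a mean of at least 50 they became 3.50 for guanylate-binding proteins, 7.95 for T-cell and NK-cell attractants, -0.51 for cytokines, -0.46 for ERK feedback, -0.40 for SKOV3 markers, 3.43 for oxidases and 4.24 for APOL genes. A floor of 10 counts gave 3.24 for oxidases and 3.99 for APOL genes, and a prior count of 2 gave 4.33 for APOL genes. In the other 314 comparisons of a list median under another setting, it moved by no more than the median half-width of its genes' own intervals. That is a looser limit than the counting error of the median itself. Of the values of named genes, 1795 moved by no more than the wider side of their own interval. Of the 126 that moved further, 101 did so with the geometric mean of the 3 control libraries as the control, out of 215 named genes. No called list median or named gene reversed under the settings computed for them, which do not include the WT/- or HAQ/- control library alone. CCL20, with 18 normalized counts in WT/HAQ cells after cGAMP, lies above the HAQ/- control at 11. Under the filters the change comes from the genes let in or left out, and under the other settings the cause was not tested. No paired analysis was possible because the WT/HAQ comparison has 1 library on each side, and the 3 lines are different genotypes and not its replicates. The limit on every value is the lack of a replicate, which no depth replaces.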

Other observations

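Of the 1943 genes raised in WT/HAQ cells, 99 were lowered past 1.5-fold in WT/- and 128 in HAQ/- cells, and of the 1861 lowered genes 88 and 96 were raised there. Over all analysed genes 8.77% were lowered in WT/- and 5.76% in HAQ/- cells, and 11.9% and 6.75% were raised. The counts are therefore no sign of reversal particular to these genes. The genes that follow were picked after their values were seen. ALDH1A1, an aldehyde dehydrogenase, had 15 and 279 counts in the WT/HAQ control and cGAMP libraries, 15 and 451 in WT/- and 19 and 1 in HAQ/- cells. KRT6A, a keratin of stressed epithelia, had 10 and 34 counts in WT/HAQ, 216 and 9 in WT/- and 36 and 22 in HAQ/- cells. The sodium channel gene SCN3A had 0 and 294 counts in WT/HAQ cells, at least 105-fold higher after cGAMP, and APLN, which encodes the peptide apelin, had 7 and 444.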
